A study of Mus musculus with 18 samples.

Results

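The cytochrome P450 genes of the mouse were taken by name, as every symbol made of Cyp, digits, letters and closing digits, without Cyp51 and without pseudogene names. The rule gave 94 genes among the 55414 genes of the expression table. Of these, 86 had a count in at least 1 library, and 50 passed the low-count filter used for detection over all 18 libraries. Of the 44 not detected, 8 were at 0 in every library and 36 had a few counts, with no group mean above 0.47 CPM, counts scaled to 1000000 per library. The 50 detected genes are counted here, and values are given for most of the 28 of them with a group mean of at least 5 CPM.

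The study grew mouse small intestinal epithelium in a gel and sequenced its polyadenylated RNA on day 6 of culture. All mice were wild-type C57BL/6J, and each of the 6 groups has 3 libraries. Isolated crypts were embedded in Matrigel, a basement membrane extract, under ENR medium, which holds EGF, Noggin and R-spondin 1. These are the Matrigel control group and, with 40 µM 5-fluorouracil (5-FU) in the medium from day 4 to day 6, the Matrigel 5-FU group. Crypts in collagen type I under ENRW medium form the collagen ENRW control group and, with the same 5-FU exposure, the collagen ENRW 5-FU group. Crypts in collagen under 25% cWRNE medium form the collagen cWRNE group. The villus group was made from villi scraped from the first 3 cm of intestine beyond the pylorus, grown in collagen under 25% cWRNE medium. The study states biological replicates for the 4 groups compared with and without 5-FU. Nothing ties a library to a particular animal, so the p-values below measure the spread between these cultures. Gel and medium change together between Matrigel and collagen ENRW, so their parts cannot be told apart. Position along the gut and origin from villus or crypt change together in the villus group and cannot be told apart either.

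Libraries held 22280427 to 34480406 estimated counts. None of 5 pan-epithelial markers was at 0 in any group, and their summed level was 6142 to 18815 CPM. The villus libraries also carried RNA of other cells. Their summed level of 7 mesenchymal markers was 48.2, 622 and 710 CPM from lowest to highest, against at most 13.5 CPM in any other library. Their summed level of 6 immune markers was 913 to 3718 CPM, against at most 68 CPM elsewhere. Replicate 1 of the villus group was the lowest in both lists, and each villus comparison of the P450 genes was also computed with it as the only villus library. That fit takes the spread from the other groups and assumes that the lone library varies like them, so its calls describe 1 library and not the villus group. Bulk RNA cannot tell fewer cells of a type from less RNA per cell, and this holds for all values below.

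Cytochrome P450 enzymes hold a heme bound through a cysteine thiolate and insert an oxygen atom into their substrate. Families CYP1, CYP2 and CYP3 mainly oxidise drugs, plant compounds and other foreign chemicals, and in the small intestine they act on what is swallowed before it reaches the liver. CYP4 enzymes hydroxylate fatty acids and eicosanoids, and other families make or remove sterols, bile acids, retinoic acid, vitamin D and steroid hormones. Many of the foreign-compound genes respond to ligand-activated factors: CYP1 genes to the aryl hydrocarbon receptor, CYP2B, CYP2C and CYP3A genes to the nuclear receptors CAR and PXR, and gut and liver enzymes broadly to HNF4.

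The 4 promoters below are shown because they carry the inner letters of an aryl hydrocarbon receptor site or the letters of an HNF4 site. Each is the 250 bases before the RefSeq start, on build GRCm38.p6, written along the gene's strand. In the CYP1 pair capitals mark GCGTG, the inner letters of the xenobiotic response element (read as CACGC where it lies on the opposite strand). In the CYP2C pair they mark CAAAGTCCA, an HNF4 direct-repeat site. Only these letters were matched, not the bases around them, and binding of a factor was not tested. Cyp1a1 is at chr9:57697363-57697612, plus strand, with its match 54 bases before the start. Cyp1b1 is at chr17:79715062-79715311, minus strand, with its match 76 bases before the start. Cyp2c65 is at chr19:39060756-39061005, plus strand, with its match 116 bases before the start. Cyp2c70 is at chr19:40187287-40187536, minus strand, with its match 64 bases before the start.
Cyp1a1: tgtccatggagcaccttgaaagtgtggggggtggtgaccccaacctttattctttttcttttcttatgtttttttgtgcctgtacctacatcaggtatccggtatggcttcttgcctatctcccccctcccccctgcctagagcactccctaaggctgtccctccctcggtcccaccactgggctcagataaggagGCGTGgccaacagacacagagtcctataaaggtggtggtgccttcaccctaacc
Cyp1b1: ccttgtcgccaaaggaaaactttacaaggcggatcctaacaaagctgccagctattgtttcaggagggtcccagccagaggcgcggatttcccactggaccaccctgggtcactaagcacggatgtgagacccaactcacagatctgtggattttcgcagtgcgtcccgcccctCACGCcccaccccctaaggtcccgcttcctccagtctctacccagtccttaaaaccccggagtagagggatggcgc
Cyp2c65: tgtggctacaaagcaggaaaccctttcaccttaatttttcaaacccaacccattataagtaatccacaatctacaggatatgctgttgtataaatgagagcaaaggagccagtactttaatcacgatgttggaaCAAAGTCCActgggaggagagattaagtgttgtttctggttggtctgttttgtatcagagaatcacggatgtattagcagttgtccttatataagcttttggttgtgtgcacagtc
Cyp2c70: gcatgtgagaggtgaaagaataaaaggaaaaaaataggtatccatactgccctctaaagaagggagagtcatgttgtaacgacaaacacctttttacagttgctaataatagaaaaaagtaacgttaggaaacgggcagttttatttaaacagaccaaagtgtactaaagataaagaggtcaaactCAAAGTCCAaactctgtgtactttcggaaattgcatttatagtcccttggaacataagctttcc

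Such windows were found for 42 of the 50 detected genes, and both strands were searched. A gene was counted once if any window listed for it had the letters, while the shares over all are by window. GCGTG stood in 12 of the 42 and in 28.2% of all 32851 windows of the same length, so it was about as common in both. CAAAGTCCA stood in 6 of the 42, namely Cyp2c40, Cyp2c65, Cyp2c67, Cyp2c68, Cyp2c70 and Cyp3a11, and in 0.384% of all windows. Several of these 6 are close paralogs in 1 gene cluster, so their matches are not independent of each other. AGGTCA, the nuclear receptor half-site, stood in 9 of the 42 and in 14% of all windows. TATAAA, the TATA box, stood in 15 of the 42 and in 12.4% of all windows.

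Paralogs also bear on the counts. Of the 50 detected genes, 15 share at least 10% of the 50-base windows of their longest transcript with another P450 gene, and 19 share none. Cyp2c40 shares 72.1%, Cyp2c67 52.8% and Cyp2c68 43.3%, mostly with Cyp2c40 or Cyp2c69. Their levels are therefore uncertain, as are those of Cyp4a10, Cyp3a25 and Cyp4f16, which share 30.5%, 26.8% and 26.5%. Cyp2c65 and Cyp2c66 share 20.2% and 20.4% of their windows with each other. Cyp1b1, Cyp2s1, Cyp3a11, Cyp3a13 and Cyp27a1 share none. Members sit in runs along the genome, taken as at most 1 other protein-coding gene between neighbours: the CYP2C run holds 14 members of which 9 were detected, a CYP3A run holds 4, all detected, and a CYP4F run holds 6, all detected.

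P450 transcripts made up a larger share of all transcripts in Matrigel than in crypt cultures in collagen. TPM values, which are scaled by gene length and then to 1000000 per library, were summed over the 94 genes in each library. The sum was 1201, 1569 and 1964 TPM in the Matrigel controls and 2552, 3830 and 3816 TPM with 5-FU. In collagen ENRW it was 306, 515 and 503 TPM without and 282, 315 and 325 TPM with 5-FU. The collagen cWRNE libraries summed to 435, 528 and 452 TPM, and the villus libraries to 1988, 1617 and 1044 TPM. Every Matrigel library and every villus library lay above every crypt library in collagen, and no test was run on these sums.

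**Figure D1:**
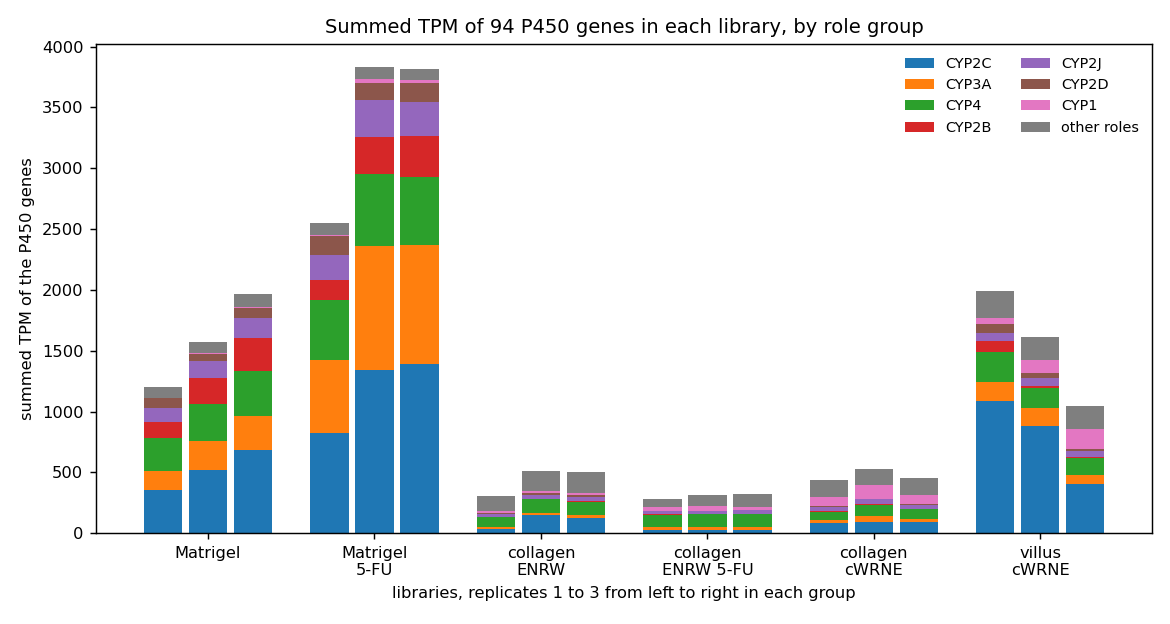
Summed TPM of the 94 P450 genes in each of the 18 libraries (vertical axis, linear), stacked by role group and ordered by group and replicate. The Matrigel bars reach 1201 to 3830 TPM and the crypt bars in collagen stay at 282 to 528 TPM.

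The makeup of these sums changed as well as their size. CYP2C genes supplied 33.1% of the P450 TPM in the Matrigel controls, 23.9% in collagen ENRW, 8.43% in collagen ENRW with 5-FU and 51.1% in the villus group. CYP3A genes supplied 14.2% in the Matrigel controls and 25.5% with 5-FU, against 4.34% in collagen ENRW. CYP1 genes supplied 0.335% in the Matrigel controls and 18.4% in collagen cWRNE. The gene with the highest mean TPM of each group is given here. In the Matrigel controls it was Cyp2b10, a classic target of the receptor CAR, at 210 ± 69.6 TPM (SD, n = 3), level within its spread with Cyp2c29 at 168 ± 73 TPM. With 5-FU in Matrigel it was Cyp2c29, a retinoid and arachidonic acid oxidising enzyme, at 659 ± 258 TPM, above Cyp3a11 at 426 ± 174 TPM by less than its spread. In collagen ENRW it was Cyp2s1, an enzyme found in epithelia outside the liver, at 108 ± 26 TPM. In collagen ENRW with 5-FU Cyp4f16 stood at 46.3 ± 2.73 TPM, level within its spread with Cyp4f13 at 46 ± 0.23 TPM. In collagen cWRNE Cyp1b1 stood at 83.4 ± 23.1 TPM, level within its spread with Cyp2s1 at 82.8 ± 12 TPM. In the villus group it was Cyp2c55, a CYP2C enzyme of the gut, at 446 ± 211 TPM.

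**Figure D2:**
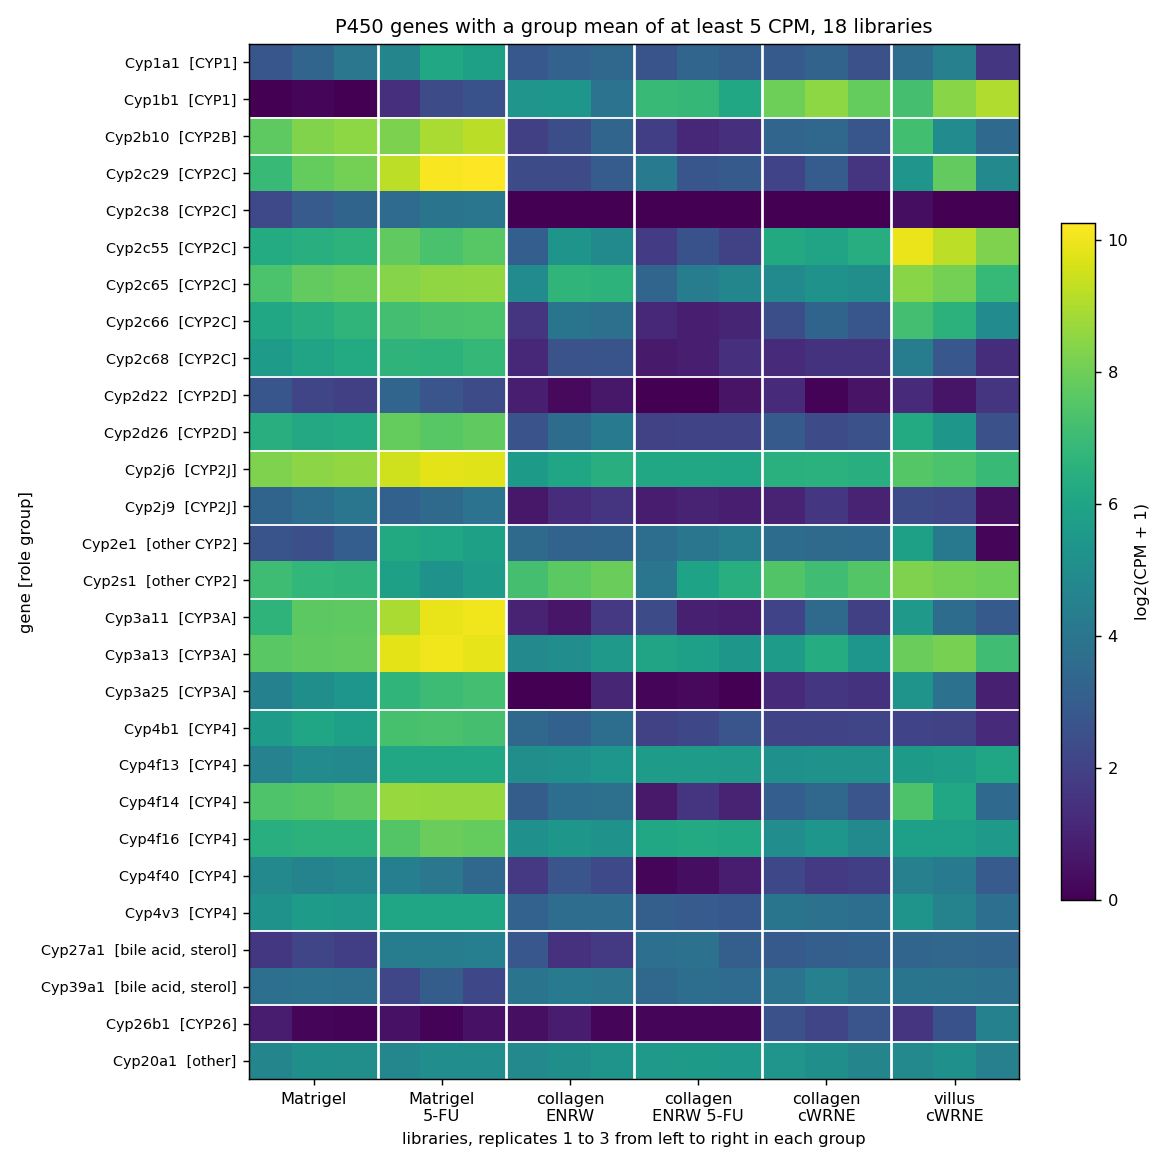
Levels of the 28 P450 genes with a group mean of at least 5 CPM (rows, by role group) in the 18 libraries (columns, by group), as log2(CPM + 1) in colour. Most rows are brighter in the 6 Matrigel libraries than in the crypt libraries in collagen, Cyp1b1 shows the opposite order, and Cyp2c55, Cyp2c65 and Cyp2s1 are bright in the villus libraries.

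The first comparison asks how the gel and its medium set the baseline, collagen ENRW against Matrigel without 5-FU. Most P450 genes were lower in collagen, among them enzymes of foreign compounds and of fatty acids: Cyp2b10, Cyp2c29 and Cyp4f14 were 54.7-, 41.8- and 17.7-fold lower. Cyp1b1, a CYP1 enzyme that oxidises polycyclic hydrocarbons and oestrogens, went the other way, from at most 0.142 CPM to at least 14 CPM. Of the 45 genes tested, 28 were lower and 4 were higher (edgeR's quasi-likelihood test, Benjamini-Hochberg adjusted p under 0.05). Over all 16611 genes tested, 31.2% were called, 15.4% lower and 15.8% higher. The median log2 fold change was -2.50 over the 45 and 0.04 over all genes. A gene passed the filter through the group where it is high, so these counts describe the 45 that passed and not all 94.

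In the CYP3A group, whose enzymes metabolise a large part of all oral drugs, 4 of 5 tested genes were lower in collagen. Cyp3a11, the main mouse CYP3A, was at 99.6, 205 and 209 CPM in the Matrigel controls and at 1.01, 0.536 and 2.25 CPM in collagen ENRW. The groups lay far apart, at a log2 fold change of -7.11 ± 0.64 (SE; adjusted p = 2.90e-06), or -7.79 without collagen ENRW replicate 3. Cyp3a13, a CYP3A enzyme of the gut, was at 194, 211 and 220 CPM against 27.7, 31.3 and 44.3 CPM. Its groups did not overlap, at a log2 fold change of -2.61 ± 0.18 (adjusted p = 2.98e-07). Cyp3a25 was at 21.6, 33.2 and 41.2 CPM against 0, 0 and 1.16 CPM. Its counts in collagen come from replicate 3 alone, so its log2 fold change of -6.46 went to -12.86 without that library and to -5.84 without replicate 1.

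All 10 CYP2C genes tested and the CYP2B gene tested were lower in collagen ENRW. Cyp2b10 was at 209, 317 and 365 CPM in the Matrigel controls against 2.88, 4.56 and 9.13 CPM, a log2 fold change of -5.77 ± 0.43 (adjusted p = 5.38e-07). Cyp2c29 was at 122, 226 and 272 CPM against 4.11, 4.06 and 6.89 CPM, a log2 fold change of -5.39 ± 0.50 (adjusted p = 3.90e-06). Both genes had every collagen library under every Matrigel library. Cyp2c38 was at 3.79, 6.69 and 8.91 CPM in the Matrigel controls and had no count in collagen ENRW, which makes it at least 196-fold lower by a floor of 3 counts over the group. Cyp2c66 was at 69, 83.5 and 102 CPM against 1.93, 14.8 and 12.8 CPM, a log2 fold change of -3.12 ± 0.46. Cyp2c68 was at 47.8, 62.1 and 75.6 CPM against 1.2, 5.19 and 5.36 CPM, a log2 fold change of -4.00 ± 0.41. Cyp2c55 and Cyp2c65 had the smallest falls of the CYP2C genes with at least 5 CPM, at -1.85 ± 0.41 (adjusted p = 0.0035) and -1.47 ± 0.39 (adjusted p = 0.012). Both had their lowest value in collagen ENRW replicate 1, Cyp2c65 at 29.8 CPM beside 102 and 97.7 CPM.

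The CYP2D, CYP2J and CYP4 groups showed the same direction, with exceptions. Cyp2j6 was at 309, 357 and 382 CPM in the Matrigel controls against 47, 64.5 and 86.1 CPM, a log2 fold change of -2.42 ± 0.18 (adjusted p = 6.56e-07). Cyp2d26 was at 84.3, 71.3 and 78.1 CPM against 5.22, 11.4 and 18.3 CPM, a log2 fold change of -2.75 ± 0.30 (adjusted p = 1.40e-05). Cyp2j9 and Cyp2d22 were called lower too, at group means of 12.1 and 3.98 CPM against 1.36 and 0.534 CPM. Among the 11 CYP4 genes tested, 6 were lower and 2 higher. Cyp4f14, a leukotriene hydroxylase, was at 172, 179 and 203 CPM against 7.02, 12 and 12.6 CPM, a log2 fold change of -4.14 ± 0.25 (adjusted p = 1.55e-07). Cyp4b1, which hydroxylates short fatty acids and bioactivates furans, fell by a log2 fold change of -2.50 ± 0.20, and Cyp4f16 by -1.28 ± 0.12. Cyp4f13, the genomic neighbour of Cyp4f14, was slightly higher in collagen at 0.43 ± 0.12 (adjusted p = 0.0169), a call that ended without collagen ENRW replicate 3 (adjusted p = 0.0835).

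The CYP1 genes, Cyp2e1 and Cyp20a1 were not lower in collagen. Cyp1b1 was at 0, 0.142 and 0 CPM in the Matrigel controls, 4 counts in all, and at 40.1, 41.2 and 14 CPM in collagen ENRW. The groups lay far apart, and the fitted log2 fold change of 9.32 ± 0.78 (adjusted p = 1.63e-06) ran from 8.71 to 12.84 when Matrigel control replicate 3 or 2 was left out. Cyp1a1, the best-known target of the aryl hydrocarbon receptor, was at 5.67, 9.28 and 15.9 CPM against 6.04, 8.28 and 9.93 CPM, and these ranges overlap. Cyp2e1, the ethanol-oxidising P450, was called higher at 0.68 ± 0.20 (adjusted p = 0.022), but not without Matrigel control replicate 1 or 2 or collagen ENRW replicate 1 (adjusted p 0.0679, 0.0923 and 0.0813) or with all 18 libraries in 1 fit (0.607). Cyp20a1, an orphan P450, lay at 24.6 to 33.4 CPM against 27.3 to 38.8 CPM and was not called. Markers of absorptive enterocytes, the gut cells in which many of these enzymes are known to be made, and of other epithelial cell types moved in the same direction as the P450 genes. Of 12 enterocyte markers, 9 were lower in collagen ENRW and 0 higher, and their summed level was 721 to 1344 CPM against 3384 to 3678 CPM. Of the other lists, 5 of 6 Paneth, 4 of 5 goblet, 4 of 5 enteroendocrine and 3 of 3 tuft markers tested were lower and none higher, while 2 of 4 crypt stem markers were lower and 1 higher. The part of these cell types in the P450 result was not tested.

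5-FU is a pyrimidine analogue that blocks thymidylate synthesis and enters RNA and DNA. In Matrigel it raised P450 genes of most roles: Cyp3a11, Cyp3a13 and Cyp2c29 rose 5-, 4.76- and 4.87-fold, Cyp2e1 rose 11.5-fold and Cyp27a1 7.37-fold. Cyp39a1 fell. Of the 45 genes tested, 19 were higher and 3 lower, where 30.9% of all genes tested were called, 19.2% higher and 11.7% lower. The median log2 fold change was 1.10 over the 45 and 0.06 over all genes.

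Cyp3a11 was at 495, 972 and 1030 CPM with 5-FU in Matrigel, against 99.6 to 209 CPM without. Every treated library exceeded every control, at a log2 fold change of 2.32 ± 0.47 (adjusted p = 0.00201). Cyp3a13 was at 913, 1036 and 938 CPM, against 194 to 220 CPM, at 2.25 ± 0.17 (adjusted p = 6.82e-07). Cyp3a25 was at 103, 130 and 146 CPM, against 21.6 to 41.2 CPM, at 2.02 ± 0.45 (adjusted p = 0.00355). Its groups did not overlap, yet DESeq2 did not call it (adjusted p = 0.399). Cyp2c29 was at 596, 1127 and 1216 CPM, against 122 to 272 CPM, at 2.28 ± 0.42 (adjusted p = 0.000955). Every treated library of Cyp3a13 and Cyp2c29 exceeded every control. Cyp2c38 was called at 1.10 ± 0.34 (adjusted p = 0.0376), but not without control replicate 1 or 2 or 5-FU replicate 2 or 3 (0.0801 to 0.117). Cyp2c65, Cyp2c66 and Cyp2c68 had log2 fold changes of 0.85, 0.90 and 0.78 that missed the threshold (adjusted p 0.118, 0.121 and 0.11), although each had its 3 treated libraries above its 3 controls. Cyp2c55 was called at 1.13 ± 0.39 (adjusted p = 0.0419), and leaving out any 1 of the 6 libraries ended the call (adjusted p 0.0566 to 0.119), as did DESeq2 (0.0985). Cyp2b10 was not called (0.66 ± 0.34, adjusted p = 0.159), at 301, 497 and 575 CPM against 209, 317 and 365 CPM.

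The CYP1 genes were both higher with 5-FU in Matrigel. Cyp1a1 was at 24.7, 69.9 and 55.1 CPM, against 5.67 to 15.9 CPM in the controls. Its groups did not overlap and its log2 fold change was 2.31 ± 0.41 (adjusted p = 0.000678). Cyp1b1 was at 1.65, 4.17 and 4.93 CPM, against 0, 0.142 and 0 CPM, and its fitted 6.21 ± 0.92 (adjusted p = 0.000174) rests on 4 control counts: it was 9.72 without Matrigel control replicate 2 and 5.60 without replicate 3. Cyp2e1 was at 74.5, 64.8 and 55.6 CPM, against 5.34, 4.66 and 7.37 CPM. Its treated libraries lay together and far above the controls, at 3.53 ± 0.22 (adjusted p = 1.05e-07).

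Of the 11 CYP4 genes tested, 6 were higher with 5-FU in Matrigel and 0 lower. Cyp4b1 was at 154, 158 and 149 CPM against 47.7, 66 and 53.5 CPM, at a log2 fold change of 1.51 ± 0.18 (adjusted p = 3.70e-05). Cyp4f13 was at 68.3, 69.6 and 70.1 CPM against 22.3, 29.6 and 27.3 CPM, at 1.44 ± 0.12 (adjusted p = 1.93e-06). Cyp4f16 was at 181, 241 and 223 CPM against 86.2, 94.4 and 94.6 CPM, at 1.27 ± 0.12 (adjusted p = 3.77e-06). These 3 genes had tight replicates and no overlap. Cyp4f14 reached 396 to 401 CPM from 172 to 203 CPM, and Cyp2j6 reached 733 to 911 CPM from 309 to 382 CPM, rises of 1.15 ± 0.22 and 1.30 ± 0.17. Among the sterol enzymes, Cyp27a1, the mitochondrial sterol 27-hydroxylase, was at 19.4, 19.5 and 20.3 CPM against 2.13, 3.38 and 2.76 CPM, at 2.88 ± 0.38 (adjusted p = 7.38e-05). Cyp39a1, an oxysterol 7-hydroxylase, went from 12.4, 13.1 and 12.9 CPM to 3.54, 7.02 and 3.73 CPM, at -1.38 ± 0.24 (adjusted p = 0.000567). Cyp2s1 went from 133, 110 and 104 CPM to 55.6, 36.9 and 48 CPM, at -1.25 ± 0.41 (adjusted p = 0.0327). Its groups did not overlap, but the call ended without Matrigel control replicate 1 or 2 or any 1 of the treated libraries (adjusted p 0.0527 to 0.116). With all 18 libraries in 1 fit, Cyp4f14 (adjusted p = 0.184), Cyp2d26 (0.0814), Cyp3a25 (0.0922) and Cyp4v3 (0.131) were not called either. Enterocyte markers rose too in this comparison: 8 of 12 were higher and 0 lower, with a summed level of 9555 to 10953 CPM. All 6 Paneth markers, all 5 goblet markers, all 5 enteroendocrine markers and 2 of 3 tuft markers tested were also higher, while 3 of 4 crypt stem markers were lower. The part of these cell types in the P450 result was not tested.

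In collagen ENRW the same exposure moved the P450 genes in both directions, with more genes falling. Cyp4f14, Cyp2c66 and Cyp2c55 fell 9.02-, 9.79- and 7.34-fold, while Cyp27a1, Cyp1b1 and Cyp4f16 rose. Of the 45 genes tested, 6 were higher and 12 lower, where 35.3% of all genes tested were called, 18.6% higher and 16.7% lower. The median log2 fold change was -0.57 over the 45, or -0.42 with genes at 0 in 1 group set to their bound, and -0.03 over all genes. Cyp2c38, with no count in either collagen group, is among the 45 and could not be called.

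The CYP2C genes account for 5 of the 12 falls. Cyp2c55 was at 7.46, 38.3 and 27.8 CPM in the collagen ENRW controls and at 2.41, 5.03 and 2.94 CPM with 5-FU. The groups did not overlap, at a log2 fold change of -2.88 ± 0.46 (adjusted p = 0.000328). Cyp2c65 went from 29.8, 102 and 97.7 CPM to 9.23, 19 and 25.3 CPM, at -2.14 ± 0.41 (adjusted p = 0.00122). Cyp2c66 went from 1.93, 14.8 and 12.8 CPM to 1.19, 0.821 and 1.08 CPM, at -3.29 ± 0.57 (adjusted p = 0.000589). In all 3 the control replicate 1 was the lowest control. Cyp2c68 was called at -1.88 ± 0.48 (adjusted p = 0.00769), with ranges of 1.2 to 5.36 CPM and 0.667 to 1.69 CPM that overlap. Cyp2c70, an enzyme that makes the muricholic bile acids of mice, had 36 counts in the controls and none with 5-FU, at least 12-fold lower. Cyp2b10 was called lower at -1.60 ± 0.44 (adjusted p = 0.0122), a call that ended without control replicate 3 (0.0748) or 5-FU replicate 2 (0.0543).

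Cyp4f14 went from 7.02, 12 and 12.6 CPM to 0.63, 1.96 and 1.02 CPM in collagen ENRW. The 2 ranges were well apart, at a log2 fold change of -3.17 ± 0.29 (adjusted p = 4.52e-06). Cyp4f40 went from 2.28, 5.43 and 3.84 CPM to 0.148, 0.286 and 0.728 CPM, at -3.28 ± 0.47 (adjusted p = 0.000142), or -4.17 without 5-FU replicate 3. Cyp4b1 went from 9.67, 8.01 and 12 CPM to 3.08, 3.71 and 5.5 CPM, at -1.30 ± 0.21 (adjusted p = 0.000342). Their relative Cyp4f16 went up, from 34.3, 42.2 and 37.9 CPM to 70.6, 75.8 and 67.1 CPM, at 0.85 ± 0.12 (adjusted p = 0.000125). Cyp2s1 went from 150, 201 and 240 CPM to 15.3, 61.3 and 83.8 CPM, at -1.92 ± 0.42 (adjusted p = 0.00278), with no overlap. Cyp2d26 went from 5.22, 11.4 and 18.3 CPM to 3.04, 3.28 and 3.32 CPM, at -1.90 ± 0.32 (adjusted p = 0.000524).

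Cyp1b1 was at 121, 112 and 69 CPM with 5-FU in collagen ENRW, above its 3 controls (14 to 41.2 CPM), at a log2 fold change of 1.61 ± 0.40 (adjusted p = 0.00685). Cyp1a1 was not called there (-0.16 ± 0.40, adjusted p = 0.789), with 5.41, 9.21 and 7.71 CPM against 6.04, 8.28 and 9.93 CPM in the controls, ranges that overlap. Cyp27a1 was at 12.3, 13.5 and 7.63 CPM against 5.85, 1.78 and 2.36 CPM, at 1.69 ± 0.37 (adjusted p = 0.00308), or 2.38 without control replicate 1. Cyp2e1 (0.67 ± 0.20), Cyp3a13 (0.58 ± 0.17) and Cyp4f13 (0.38 ± 0.12) were called higher at adjusted p 0.0188, 0.0162 and 0.0263. Each of these calls ended under several omissions. Cyp2e1 was not called without control replicate 2 or 3 or 5-FU replicate 3 (adjusted p 0.0622 to 0.0857). Cyp3a13 was not called without control replicate 1 or 2 or 5-FU replicate 1 (0.0658 to 0.0666), and Cyp4f13 without control replicate 1 or 2 or 5-FU replicate 1 or 2 (0.0646 to 0.0953). With all 18 libraries in 1 fit, Cyp2e1 (0.568), Cyp3a13 (0.0959), Cyp2b10 (0.128), Cyp2c68 (0.0558) and Cyp4v3 (0.101) were not called. Enterocyte markers fell here, 6 of 12 lower and 1 higher, with a summed level of 625 to 711 CPM against 721 to 1344 CPM in the controls. Of 5 goblet markers 3 were lower and 1 higher, of 4 crypt stem markers 3 were lower and 1 higher, and 2 of 3 tuft markers and 1 of 6 Paneth markers were lower. Of 5 enteroendocrine markers, 3 were higher and none lower. The part of these cell types was not tested.

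The difference between the 2 responses was tested as an interaction, collagen minus Matrigel on the log2 scale. It was negative for all 18 genes called of the 45 tested, where 8.19% of all genes tested were called, 6.3% lower and 1.88% higher. The median difference was -1.74 over the 45 and -0.07 over all genes. The 5 genes Cyp2c55, Cyp2d26, Cyp4b1, Cyp4f14 and Cyp4v3 were called higher with 5-FU in Matrigel and lower in collagen. Their interactions were -4.01, -3.38, -2.81, -4.33 and -1.31 (adjusted p 3.49e-05 to 0.00241). The Matrigel call of Cyp2c55 ended when any 1 of its libraries was left out. With all 18 libraries in 1 fit, the Matrigel calls of Cyp2c55 (0.0881), Cyp2d26 (0.0814), Cyp4f14 (0.184) and Cyp4v3 (0.131) ended. The collagen call of Cyp4v3 ended there too (0.101). Another set of 5, Cyp2b10, Cyp2c65, Cyp2c66, Cyp2c68 and Cyp4f40, was called lower in collagen and not called in Matrigel, with interactions of -2.27 to -4.19. Another set of 4, Cyp1b1, Cyp2e1, Cyp3a13 and Cyp4f13, was called higher in both gels with a smaller log2 rise in collagen. For Cyp1b1 the Matrigel rise rests on 4 control counts. Its group means went from 0.0474 to 3.58 CPM in Matrigel and from 31.8 to 101 CPM in collagen, a larger gain in CPM. The collagen calls of Cyp2e1, Cyp3a13 and Cyp4f13 were those that ended under several omissions. Cyp1a1, Cyp2j6 and Cyp4f17 were called higher in Matrigel and not in collagen, with interactions of -2.47 ± 0.57, -1.32 ± 0.25 and -2.45 ± 0.47 (adjusted p 0.0162, 0.00476 and 0.00572). For Cyp3a11, Cyp3a25 and Cyp2c29 the responses were called in Matrigel and not in collagen, but the interaction was not called, so the responses are not shown to differ. Cyp2c38, called in Matrigel, had no count in either collagen group, so its response there and its interaction could not be tested. Cyp27a1, Cyp4f16 (both higher) and Cyp2s1 (lower) were called in the same direction in both gels with no interaction called.

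Some interactions rest on particular libraries. That of Cyp1b1 (-4.59, adjusted p = 0.0243) was not called without Matrigel control replicate 1 or 3 or Matrigel 5-FU replicate 2 or 3 (adjusted p 0.0549 to 0.0824) and was -8.10 without Matrigel control replicate 2. That of Cyp2b10 was not called without Matrigel 5-FU replicate 3, collagen ENRW control replicate 3 or collagen ENRW 5-FU replicate 2 or 3 (0.0577 to 0.0709). That of Cyp4f40 was not called without collagen ENRW 5-FU replicate 2 (0.0513) and was -3.47 without replicate 3. With all 18 libraries in 1 fit, 10 of the 18 interactions were called, and those of Cyp1a1 (0.126), Cyp1b1 (0.0644), Cyp2b10 (0.257), Cyp2c68 (0.14), Cyp2c70 (0.145), Cyp2e1 (0.225), Cyp4f40 (0.0552) and Cyp4v3 (0.101) were not. Enterocyte markers had interactions in the same direction, 10 of 12 lower and 0 higher, and all 6 Paneth and all 5 goblet markers were lower too, as were 2 of 5 enteroendocrine, 2 of 3 tuft and 2 of 4 crypt stem markers.

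**Figure D3:**
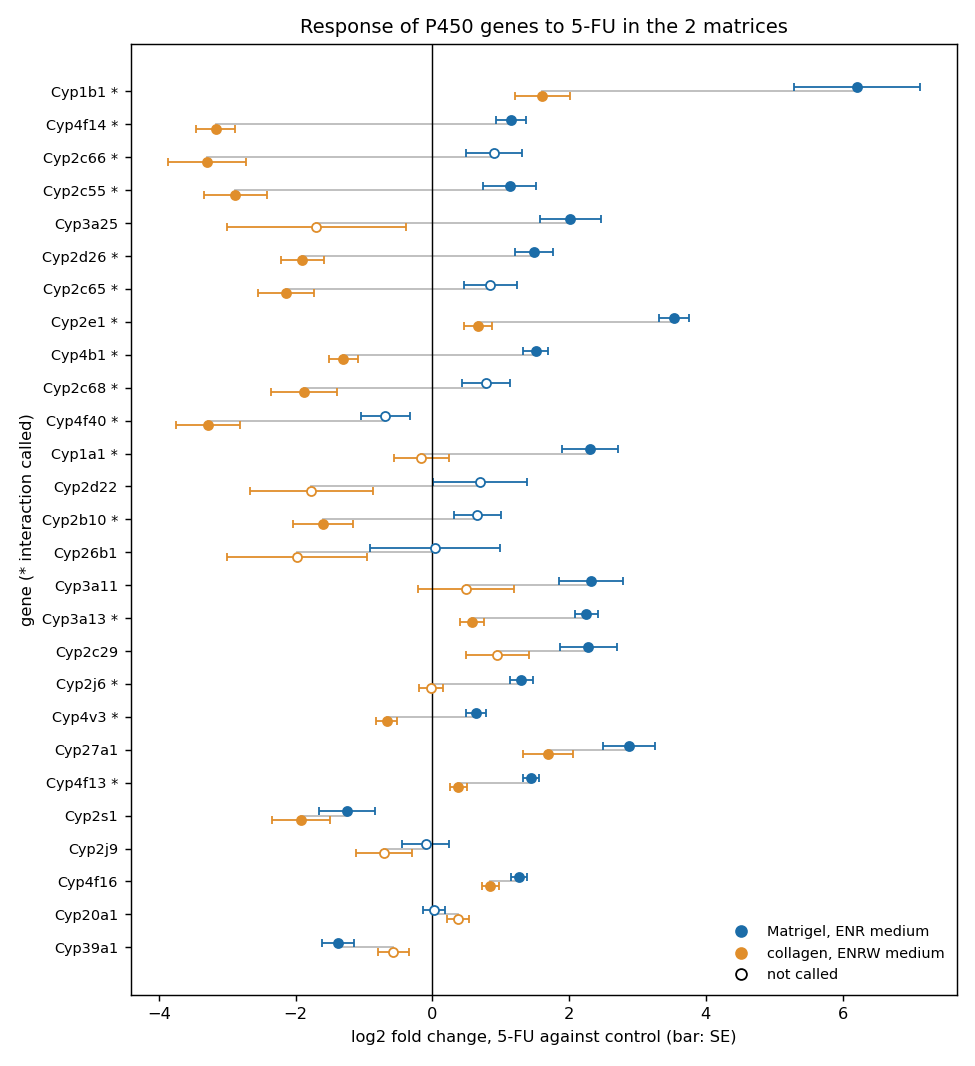
Log2 fold change with 5-FU (horizontal axis, bars are SE) of 27 P450 genes in Matrigel (blue) and collagen ENRW (orange), ordered by the distance between the 2, with open points for genes not called and stars for called interactions. Cyp2c38, with no count in either collagen ENRW group, is not drawn, and the orange points of all starred genes lie to the left of the blue ones.

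The next comparison holds gel and crypt origin fixed and sets cWRNE medium against ENRW in collagen. The groups belong to different experiments of the study, so medium and experiment change together and cannot be told apart. Cyp1b1 and the steroid enzyme Cyp21a1 were higher with cWRNE, and Cyp4b1 was lower. Of the 50 genes tested, 7 were higher and 4 lower, where 18% of all 17708 genes tested were called, 13.1% higher and 4.85% lower, and the median was 0.00 over the 50 and over all genes. The share of P450 genes called is near that of all genes. Cyp2c38, Cyp2f2 and Cyp4f18 had no count in either group and could not be called. The count of 11 calls fell to 7 without collagen ENRW replicate 1 or 2, to 5 without ENRW replicate 3 or cWRNE replicate 2, and to 4 without cWRNE replicate 1.

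Cyp1b1 was at 252, 360 and 227 CPM with cWRNE against 40.1, 41.2 and 14 CPM with ENRW. The groups were far apart, at a log2 fold change of 3.11 ± 0.49 (adjusted p = 0.000416). Cyp4b1 was at 3.32, 3.29 and 3.36 CPM against 9.67, 8.01 and 12 CPM, at -1.59 ± 0.24 (adjusted p = 0.000324). Cyp26b1, which inactivates retinoic acid, was at 4.83, 3.38 and 5.43 CPM against 0.348, 0.704 and 0.145 CPM, at 3.47 ± 0.92 (adjusted p = 0.0149). Its call ended without ENRW replicate 1 (0.0559) or 3 (0.0734), and the value was 4.15 without replicate 2. Cyp21a1, the steroid 21-hydroxylase, had 237 counts with cWRNE and none with ENRW, at least 78.7-fold higher, and it had no count in either Matrigel group. Cyp21a1 shares 23.7% of its windows with its pseudogene copy Cyp21a2-ps. Cyp2c55 was at 74.6, 63.1 and 82 CPM against 7.46, 38.3 and 27.8 CPM, at 1.56 ± 0.45 (adjusted p = 0.0226). That call ended without ENRW replicate 1 or 3 or any 1 of the cWRNE libraries (adjusted p 0.0507 to 0.0678).

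Cyp27a1 was called higher with cWRNE at 1.13 ± 0.34 (adjusted p = 0.0298). Only 1 of the 6 omissions kept that call, ENRW replicate 1 (1.83, adjusted p = 0.000527), and the other 5 ended it (0.0575 to 0.14), as did library totals without scaling (0.0537) and a fit of the 2 groups alone (0.0709). Cyp2c65 was called lower at -1.27 ± 0.42 (adjusted p = 0.0479), with overlapping ranges of 28.4 to 35.9 CPM and 29.8 to 102 CPM. With the replicate number as a block it was -1.19 and not called (adjusted p = 0.0602). Leaving out ENRW replicate 2 or 3 or any 1 of the cWRNE libraries also ended it (0.102 to 0.183). Cyp2c70 was at 3 counts with cWRNE against 36 with ENRW, a ratio of 12.1 with a 95% counting interval of 3.81 to 61.2. A list of 7 genes around the aryl hydrocarbon receptor, whose targets include Cyp1a1 and Cyp1b1, was chosen with earlier results of these data known. Of these 7, 5 were higher with cWRNE and 0 lower, beside 13.1% and 4.85% of all genes. In the other comparisons in which Cyp1b1 was higher, this list had 2 higher and 2 lower in collagen ENRW against Matrigel, 1 higher and 2 lower with 5-FU in collagen, and 1 higher and 0 lower with 5-FU in Matrigel. Against the Matrigel controls it had 5 higher and 1 lower in collagen cWRNE and likewise in the villus group. Its summed level was 546 to 771 CPM in the Matrigel controls, 245 to 288 CPM in collagen ENRW and 447 to 471 CPM in collagen cWRNE. Ahr, the receptor itself, was at 90.4, 116 and 103 CPM against 29.6, 36.6 and 32.3 CPM, at 1.63 ± 0.25 (adjusted p = 0.000347). Cyp1a1 was not called, at 6.46, 8.72 and 4.82 CPM against 6.04, 8.28 and 9.93 CPM. Of the cell type markers, 4 of 12 enterocyte and 2 of 5 enteroendocrine markers were lower with cWRNE and none higher. Of 4 crypt stem markers 2 were lower and 1 higher, of 5 goblet markers 1 was lower and 1 higher, and 1 of 6 Paneth markers was higher. Their part was not tested.

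**Figure D4:**
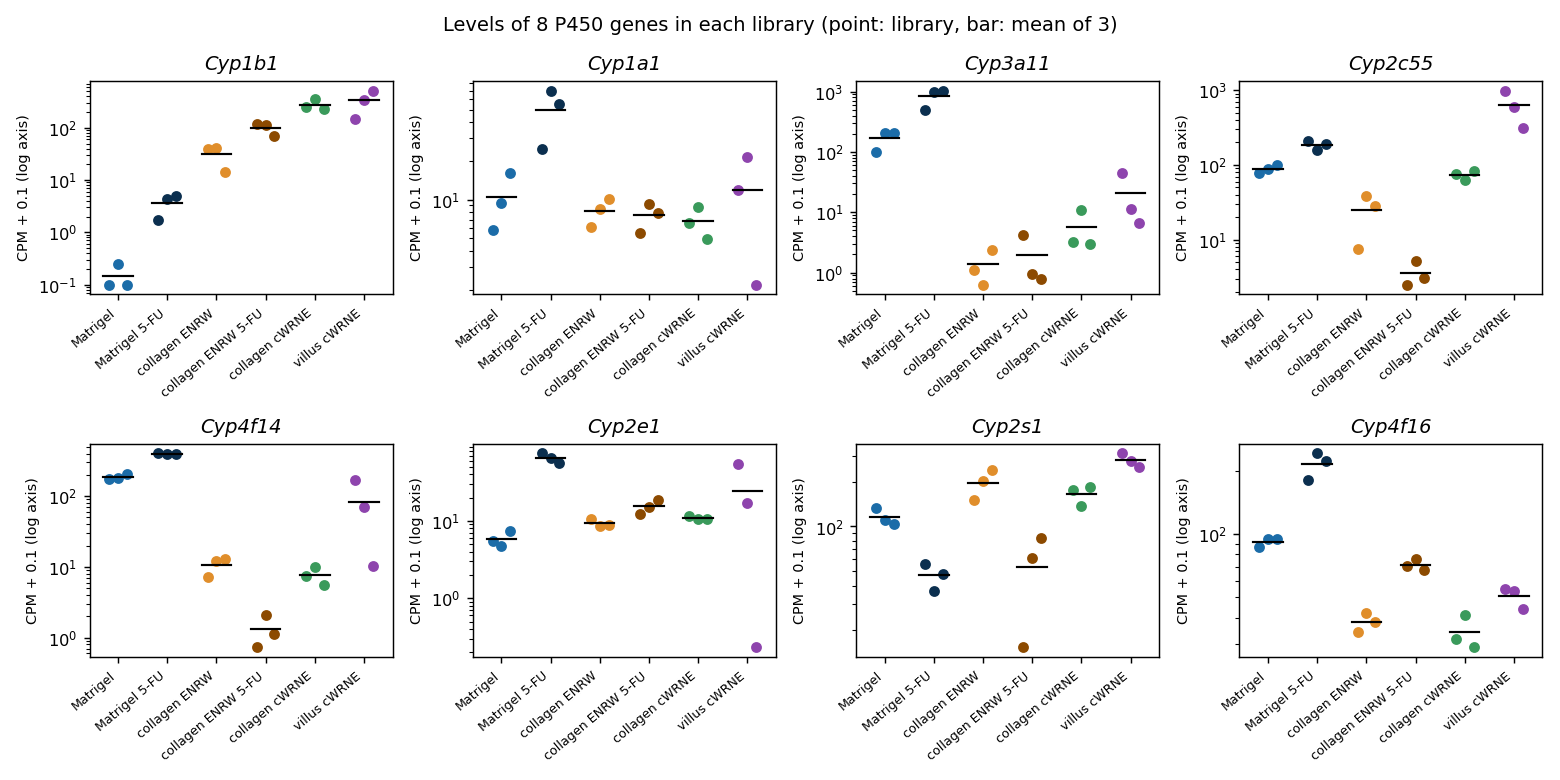
Levels of 8 P450 genes in each library (points) with the mean of 3 (bar), as CPM + 0.1 on a log axis, by group. Cyp1b1 climbs from under 1 CPM in the Matrigel controls to 150 to 514 CPM in the villus group, while Cyp3a11 is highest with 5-FU in Matrigel (495 to 1030 CPM) and at most 10.7 CPM in any crypt library in collagen.

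Villus-derived cultures were compared with crypt-derived cultures in the same gel and medium. The P450 genes that were called were all higher in the villus group. Among them were CYP2C enzymes: Cyp2c55, Cyp2c65 and Cyp2c66 were 8.71-, 7.71- and 14.3-fold higher. Of the 45 genes tested, 13 were higher and 0 lower, where 7.64% of all 16699 genes tested were called, 5.68% higher and 1.96% lower. The median log2 fold change was 1.08 over the 45 and -0.03 over all genes. The 13 calls became 5 without collagen cWRNE replicate 1 or 3, 8 without cWRNE replicate 2 or villus replicate 2, and 21 without villus replicate 3. With villus replicate 1 as the only villus library, assumed to vary like the other groups, there were 19 calls, of which 10 were among the 13.

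Cyp2c55 was at 984, 597 and 310 CPM in the villus group against 74.6, 63.1 and 82 CPM in collagen cWRNE. All villus libraries were higher, at a log2 fold change of 3.12 ± 0.36 (adjusted p = 0.00229), and 3.77 with villus replicate 1 alone. Cyp2c65 was at 342, 277 and 117 CPM against 28.4, 35.9 and 32.2 CPM, at 2.95 ± 0.35 (adjusted p = 0.00261). Cyp2c66 was at 146, 94.4 and 29.5 CPM against 4.44, 8.97 and 5.64 CPM, at 3.84 ± 0.53 (adjusted p = 0.00418), and 4.55 with villus replicate 1 alone. In these 3 genes replicate 1 was the highest villus library and replicate 3 the lowest. Cyp3a13 was at 236, 283 and 136 CPM against 47.9, 80.8 and 40.6 CPM, at 1.97 ± 0.30 (adjusted p = 0.0065). Cyp4f40 was at 21.1, 17.9 and 6.76 CPM against 3.67, 2.37 and 2.72 CPM, at 2.40 ± 0.39 (adjusted p = 0.00793). Cyp2c29 was highest in villus replicate 2, at 39.6, 222 and 27.5 CPM against 3.14, 6.82 and 1.9 CPM. It was called at 4.61 ± 0.86 (adjusted p = 0.0135), which became 3.34 with villus replicate 1 alone, 3.11 without villus replicate 2, 5.27 without cWRNE replicate 2, and was not called without cWRNE replicate 1 (0.0721) or 3 (0.0674).

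Other calls in the villus group were less firm. Cyp4f14 was at 168, 69.9 and 10.3 CPM against 7.34, 10 and 5.5 CPM, at a log2 fold change of 3.45 ± 0.76 (adjusted p = 0.0268). That became 4.48 with villus replicate 1 alone, 2.43 without that library, and was not called without villus replicate 2 or any 1 of the cWRNE libraries (adjusted p 0.0549 to 0.116). Cyp2d26, whose ranges overlap (4.76 to 75.6 CPM against 4.01 to 6.49 CPM), was called at 3.02 ± 0.73 (adjusted p = 0.0366). It became 3.92 with villus replicate 1 alone, 2.24 without that library, and was not called without villus replicate 2 or any 1 of the cWRNE libraries (0.0806 to 0.136). The calls of Cyp2j6 (0.84 ± 0.16) and Cyp2s1 (0.77 ± 0.16) ended without any 1 of the cWRNE libraries (0.0516 to 0.0688), and that of Cyp2s1 also without villus replicate 2 (0.054) and with all 18 libraries in 1 fit (0.202). The call of Cyp4f16 (0.60 ± 0.16) ended without cWRNE replicate 1 or 3 or villus replicate 1 or 2 (0.0563 to 0.146), with villus replicate 1 alone (0.0571) and with no low-count filter (0.0634). Cyp1b1 was high in both groups, at 150, 344 and 514 CPM against 252, 360 and 227 CPM, and was not called (0.28 ± 0.43, adjusted p = 0.751). Cyp4f18, a P450 of neutrophils and other blood cells, had 328 counts in the villus libraries and 0 in the other 15 libraries, at least 122-fold higher than in collagen cWRNE. The immune markers Ptprc and Adgre1 were at 0 in collagen cWRNE and present in the villus group. Of 12 enterocyte markers, 4 were higher in the villus group and 0 lower, all 7 mesenchymal markers were higher, and 4 of 5 immune markers tested were. Goblet (2 of 5) and tuft (1 of 3) markers were higher with none lower, 1 of 5 enteroendocrine and 1 of 4 crypt stem markers were lower, and no Paneth marker was called. Their part in the P450 values was not tested.

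Both cWRNE groups in collagen were also set against the Matrigel controls, which they share, so the 2 comparisons are not independent. Gel and medium change together in both, and origin and gut position as well in the villus group. These parts cannot be told apart. Crypts in collagen cWRNE had 5 higher and 23 lower of 45 tested, where 33.3% of all genes were called, 20.1% higher and 13.1% lower. Cyp4f18, with no count in either group, could not be called. The villus group had 11 higher and 11 lower of 45 tested, where 46.6% were called, 27% higher and 19.7% lower. Cyp4b1 was lower in both, at -4.14 ± 0.30 (adjusted p = 2.22e-05) and -4.52 ± 0.31 (adjusted p = 2.32e-05), with villus values of 3.21, 2.94 and 1.38 CPM. Cyp4f16 (-1.50 ± 0.16 and -0.91 ± 0.16) and Cyp2j6 (-2.04 ± 0.16 and -1.20 ± 0.16) were lower in both. Cyp2c55 was higher than in Matrigel in the villus group (2.79 ± 0.35, adjusted p = 0.000353, and 3.45 with villus replicate 1 alone) and not called in the crypt group (-0.34 ± 0.33, adjusted p = 0.466). Cyp2c65, lower in the crypt group (-2.77 ± 0.35, adjusted p = 0.000373), lay at 117 to 342 CPM in the villus group, a range that includes the 163 to 243 CPM of the Matrigel controls. Cyp2s1 was higher in the villus group at 1.22 ± 0.16 (adjusted p = 0.00041), with 310, 276 and 250 CPM against 104 to 133 CPM. Cyp4f13 was higher there too (1.01 ± 0.17), as was Cyp27a1 in both groups (1.36 ± 0.26 and 1.69 ± 0.26). Cyp3a11 was lower in both, at -5.00 ± 0.82 (-5.86 without cWRNE replicate 2) and -3.09 ± 0.75. The villus value was -4.26 without villus replicate 1, and -1.98 and not called (adjusted p = 0.0534) with that library alone. Cyp26b1 was higher in the villus group at 4.89 ± 1.09 (adjusted p = 0.00572), mostly through replicate 3 at 21.4 CPM beside 1.88 and 5.06 CPM. It was 3.44 without that library, 6.77 without Matrigel control replicate 1, and 2.58 and not called (adjusted p = 0.0647) with villus replicate 1 alone.

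The 22 detected genes under 5 CPM in every group include 4 CYP2C genes and 6 CYP4 genes, and 14 of the 22 had their highest mean in a Matrigel group. A gene passed the filter through the group where it is high, so that count describes only the genes that passed. No such share was computed over all genes. Cyp2c40, Cyp2c23, Cyp3a59 and Cyp2d10 had their highest group mean with 5-FU in Matrigel (3.01, 2.15, 2 and 1.98 CPM). Cyp4f17 had group means of 0.738 CPM in the Matrigel controls and 2.91 to 4.73 CPM in all other groups. The vitamin D 25-hydroxylase Cyp2r1 lay at 0.951 to 2.6 CPM in all groups and was called in no comparison. Cyp4a10, a PPARA target, had 153 counts in collagen ENRW and 0 in collagen cWRNE, at least 51.2-fold lower, although the ranges of the libraries overlap. Among the genes not detected were Cyp27b1 and Cyp24a1, the vitamin D activating and inactivating enzymes, with 72 and 30 counts over all libraries, and Cyp1a2 with 33.09.

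The genes that serve the P450 enzymes were taken from lists of known partners. These lists, with those of nuclear receptors and epoxide enzymes below, were chosen with earlier results of these data known. Their counts beside the shares of all genes are therefore descriptive. Of 7 redox partners with an identifier, which pass electrons to P450 enzymes, 4 were higher with 5-FU in Matrigel and 0 lower, beside 19.2% and 11.7% of all genes. Por, the P450 reductase, was at 398, 376 and 384 CPM against 324, 275 and 281 CPM, at a log2 fold change of 0.44 ± 0.10 (adjusted p = 0.00433). Cyb5a, cytochrome b5, was at 573, 547 and 583 CPM against 355, 393 and 319 CPM, at 0.72 ± 0.11 (adjusted p = 0.000215). In collagen ENRW against Matrigel 3 of the 7 were lower and 0 higher, beside 15.4% and 15.8% of all genes, with Cyb5a at -0.94 ± 0.11 and Por not called. With 5-FU in collagen ENRW, where more P450 genes fell than rose, 2 of the 7 were higher and 1 lower, beside 18.6% and 16.7% of all genes. Of 8 heme synthesis genes tested, 2 were lower in collagen ENRW, near the 15.4% of all genes, and their median was -0.14. The rate-limiting Alas1 was 1 of the 2 (-0.66 ± 0.13, adjusted p = 0.00197).

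Among 18 nuclear receptor genes, 12 were lower in collagen ENRW than in Matrigel and 1 higher, beside 15.4% and 15.8% of all genes. With 5-FU in Matrigel, 4 of the 18 were lower and 2 higher, beside 11.7% and 19.2% of all genes. With 5-FU in collagen ENRW, 11 of the 18 were lower and 1 higher, beside 16.7% and 18.6%. Nr1i3, which encodes CAR, was at 24.9, 28.8 and 25 CPM in the Matrigel controls and at 1.96, 3.72 and 4.24 CPM in collagen ENRW, at -3.00 ± 0.30 (adjusted p = 6.89e-06). With 5-FU it was at 43.9, 39.9 and 37 CPM in Matrigel, above its controls but not called (adjusted p = 0.0771), and fell in collagen to 0.815, 0.535 and 1.48 CPM (-1.81 ± 0.33, adjusted p = 0.000892). Its interaction was -2.48 ± 0.43 (adjusted p = 0.00292). In the villus group Nr1i3 was at 10.7, 9.25 and 5.24 CPM against 1.31, 2.27 and 2.14 CPM in collagen cWRNE, at 2.15 ± 0.31 (adjusted p = 0.00534). Nr1i2, which encodes PXR, was lower in collagen ENRW than in Matrigel (-1.06 ± 0.29, adjusted p = 0.0132), and so was Hnf4g (-1.74 ± 0.22, adjusted p = 5.18e-05). Of 6 epoxide hydrolase and eicosanoid genes, which act downstream of P450 epoxides, 4 rose with 5-FU in Matrigel and 3 in collagen, beside 19.2% and 18.6% of all genes. Ephx1, the microsomal epoxide hydrolase, rose in both (2.67 ± 0.13 and 2.21 ± 0.13). Ephx2, the soluble form, was lower in collagen ENRW than in Matrigel (-2.74 ± 0.18, adjusted p = 2.50e-07).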

How the data were processed

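The deposited table gives, per the file headers, estimated counts and TPM for 55414 genes in 18 libraries. Per the submitters' processing notes the authors used bcl2fastq 2.20 and DRAGEN on GRCm39. The annotation and counting tool are not given in the sources used here. Estimated counts (67.8% of those above 0 whole within 1e-09) were rounded and tested with edgeR 4.0.16 (R 4.3.3; TMM scaling, filterByExpr with a minimum count of 10 and a total of 15, quasi-likelihood F test, Benjamini-Hochberg over all genes, threshold 0.05). One fit held the 12 libraries with and without 5-FU, one the 9 of the Matrigel control, collagen cWRNE and villus groups, and one all 18 for cWRNE against ENRW. The SE is the log2 fold change divided by the square root of F. CPM values are counts per 1000000 after TMM scaling. DESeq2 1.42.0 was an alternative. Of the table's identifiers, 52081 had a symbol. Most P450 genes with a group mean of at least 5 CPM are given with values, and others mainly where a group is at or near 0. The members and gene lists were chosen with earlier results of these data known. Floors of 3 counts and 95% intervals cover counting error only. Libraries of a group differed beyond sampling noise (lowest chi-square 10.6 per degree of freedom). Same-numbered libraries deviated together over 11186 genes for 5-FU in Matrigel (r 0.249 to 0.467), 5-FU in collagen (0.204 to 0.38) and cWRNE against ENRW (0.162 to 0.317), so a replicate block was also fitted. The scripts were tested on simulated data with planted changes. Planted 2-fold changes were called in 56.1% of cases for 5-FU in Matrigel, the most, and in 13.1% for villus against Matrigel, the fewest. Planted 4-fold changes were called in 61.2% (villus against crypt) to 79.6% (5-FU in collagen). A gene not called can therefore still differ.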

Additional observations from a re-analysis of the deposited data

Results flagged for a closer look

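For 16 P450 genes with at least 5 CPM in a group, the 5-FU response differed between the gels by the interaction test, collagen minus Matrigel on the log2 scale. The difference was -4.33 for Cyp4f14, -4.19 for Cyp2c66, -4.01 for Cyp2c55, -3.38 for Cyp2d26, -2.98 for Cyp2c65 and -2.81 for Cyp4b1. It was -4.59 for Cyp1b1, -2.86 for Cyp2e1, -2.65 for Cyp2c68, -2.59 for Cyp4f40, -2.47 for Cyp1a1 and -2.27 for Cyp2b10. It was -1.67 for Cyp3a13, -1.32 for Cyp2j6, -1.31 for Cyp4v3 and -1.06 for Cyp4f13. Gel and medium change together here and cannot be told apart.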

How the results depend on the processing

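Of 164 calls of P450 genes, 126 were of genes with a group mean of at least 5 CPM. Of these 126, 82 were tested and called under every alternative, 6 held wherever they were tested, 38 ended under at least 1, and none reversed. With all 18 libraries in 1 fit, the P450 genes called fell from 22 to 14 for 5-FU in Matrigel and from 18 to 10 for the interaction. Asking for at least 10 CPM in at least 3 libraries, which tests fewer genes, gave 21 calls in place of 32 for collagen against Matrigel, 5 in place of 11 for cWRNE against ENRW, 17 in place of 28 for collagen cWRNE against Matrigel (16 of them among the 28) and 11 in place of 22 for villus against Matrigel (10 of them among the 22). DESeq2 called 20 in place of 13 for villus against crypt. Leaving out 1 library in turn gave 17 to 19 calls for 5-FU in Matrigel, 15 to 18 for 5-FU in collagen, 15 to 19 for the interaction and 27 to 31 for collagen against Matrigel. It gave 4 to 8 for cWRNE against ENRW, 24 to 28 for collagen cWRNE against Matrigel, 5 to 21 for villus against crypt and 17 to 26 for villus against Matrigel. A left-out library leaves that group with 2, assumed to vary like the other groups, and the same is assumed of villus replicate 1 as the only villus library. The replicate block gave 23, 20, 17, 30, 9, 29, 9 and 23 calls in the same order. It ended the cWRNE call of Cyp2c65 (adjusted p = 0.0602) and, for villus against crypt, where the numbers do not pair the libraries, those of Cyp2d26 (0.0758), Cyp4f14 (0.061) and Cyp4f16 (0.0609). Among genes under 5 CPM it ended the calls of Cyp3a44 for 5-FU in Matrigel (0.0603), Cyp2c70 for the interaction (0.0598), Cyp2u1 (0.0649) and Cyp2w1 (0.0514) for collagen against Matrigel, Cyp2w1 for cWRNE against ENRW (0.0727), Cyp2c23 for villus against crypt (0.0603) and Cyp11a1 for villus against Matrigel (0.0656). With library totals in place of TMM, the median of all genes shifted by -0.15 for 5-FU in Matrigel and by -0.16 for cWRNE against ENRW. Detection as at least 1 TPM in at least 3 libraries gave 42 genes in place of 50. Partner genes and markers were not recomputed under the alternatives. The cause of these differences was not tested, beyond fewer genes or libraries where stated. Genes with group means of a few CPM or less are limited by depth.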
